A study of Mus musculus with 24 samples.

Results

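The Pomc-high and Pomc-low libraries are the 6 hypothalamus libraries with the highest and the 6 with the lowest Pomc among 24, and the other 12 lie between them. The sides were chosen by measured values: the 24 libraries were ranked by the FPKM of Pomc (a read level scaled to transcript length and library size), so Pomc itself is described and not tested. Each library held total RNA from the hypothalamus of a C57BL6 mouse, and 3 females and 3 males were sequenced for each of 4 diets. All mice were 15 months old and had eaten their diet from 12 weeks of age. The diets were isocaloric and differed in their content of leucine, isoleucine and valine, the branched-chain amino acids (BCAA), at 20, 50, 100 or 200% of the standard in BCAA20, BCAA50, BCAA100 and BCAA200. The working question was whether a library rich in Pomc is a library rich in arcuate nucleus, and whether Pomc moved with arcuate genes or with pituitary genes.

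Pomc encodes pro-opiomelanocortin, a precursor that is cut into alpha-MSH, ACTH and beta-endorphin. In the brain it is made mainly by neurons of the arcuate nucleus, at the base of the hypothalamus, whose alpha-MSH acts on melanocortin receptors to lower food intake. The pituitary, which hangs below the arcuate nucleus, makes far more of it in the corticotrophs of the anterior lobe and the melanotrophs of the intermediate lobe. Agrp and Npy mark a neighbouring arcuate population that opposes the Pomc neurons. In a dissected block of tissue, fewer cells of a type and less RNA per cell cannot be told apart.

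Pomc lies on chromosome 12 at 3954951 to 3960642 on the plus strand (GENCODE M21, GRCm38), and no other annotated gene overlaps it. Its promoter is shown because Pomc ranks the libraries, and that of Oxt, the oxytocin gene, because Oxt had the largest difference between the sides. Both run from 250 bases before to 50 bases after the RefSeq start on GRCm38.p6, at chr12:3954695-3954994 (plus strand) and chr2:130575919-130576218 (plus strand). Capitals mark TATAAA, the TATA box consensus, and AGGTCA or its reverse complement TGACCT, a hormone receptor half-site motif.
Pomc: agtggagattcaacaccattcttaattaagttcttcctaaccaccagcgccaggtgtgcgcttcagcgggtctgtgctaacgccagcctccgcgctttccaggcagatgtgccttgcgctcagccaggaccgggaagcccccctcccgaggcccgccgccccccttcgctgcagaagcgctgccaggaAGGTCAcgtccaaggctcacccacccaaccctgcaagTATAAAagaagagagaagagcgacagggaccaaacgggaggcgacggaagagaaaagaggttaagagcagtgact
Oxt: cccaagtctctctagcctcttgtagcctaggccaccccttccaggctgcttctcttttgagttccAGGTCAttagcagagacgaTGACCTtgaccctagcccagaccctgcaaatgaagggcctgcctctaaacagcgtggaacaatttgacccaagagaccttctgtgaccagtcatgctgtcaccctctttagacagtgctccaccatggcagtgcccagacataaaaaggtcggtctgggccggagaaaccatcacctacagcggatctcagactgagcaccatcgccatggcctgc
The Pomc window held 1 TATAAA and 1 AGGTCA, both on the plus strand. The Oxt window held no TATAAA and 2 matches of AGGTCA, 1 on each strand. Over 32851 promoters of the same length, 13.6% held TATAAA and 16.3% held AGGTCA on either strand, so both motifs are common. These matches describe letters and were not related to any measured binding.

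Pomc ran from 45.1 to 0.408 FPKM over the 24 libraries. On the high side it was 45.1 FPKM in BCAA100 male replicate 5, 23.1 in BCAA200 male replicate 4, 14.6 in BCAA100 female replicate 1 and in BCAA20 male replicate 6, 10.95 in BCAA20 male replicate 4 and 10.01 in BCAA50 male replicate 4. On the low side it was 0.830 FPKM in BCAA200 female replicate 1, 0.727 in BCAA100 male replicate 6, 0.640 in BCAA200 male replicate 6, 0.573 in BCAA50 male replicate 5, 0.502 in BCAA50 female replicate 2 and 0.408 in BCAA100 female replicate 3. No gap set the sides apart from the libraries between them. The first library outside the high side, BCAA100 female replicate 2, had 9.15 FPKM, and the first outside the low side, BCAA200 female replicate 2, had 0.846. The highest and the lowest library of the series both came from mice on BCAA100.

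**Figure D1:**
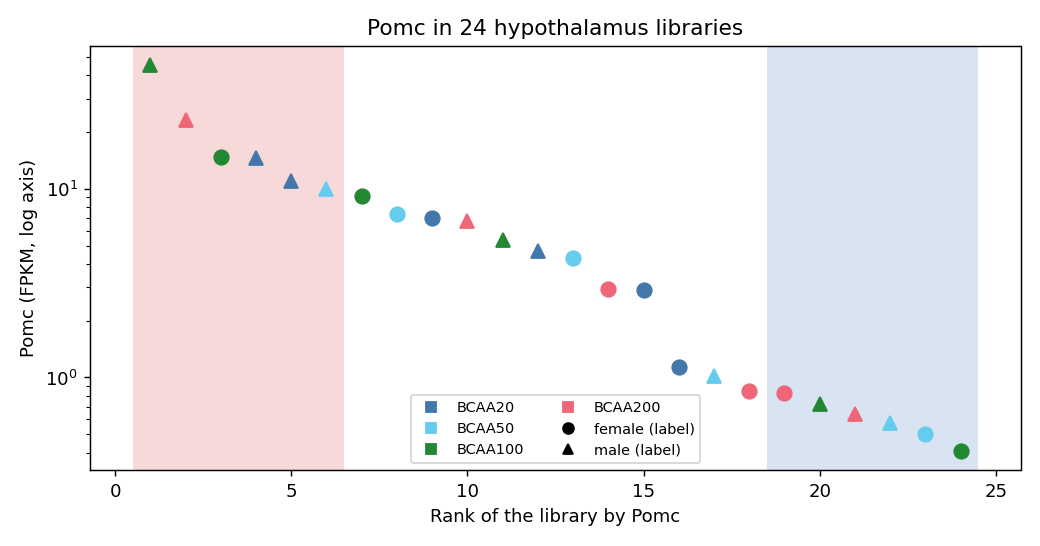
Pomc in FPKM (log axis) against the rank of each of the 24 libraries, with diet as colour and labelled sex as shape; red shading covers the 6 Pomc-high and blue shading the 6 Pomc-low libraries. The values fall without a step from 45.1 to 0.408 FPKM, and each diet spreads over much of the range.

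The diets were spread over both sides. The high side held 2 BCAA100, 2 BCAA20, 1 BCAA50 and 1 BCAA200 library, and the low side 2 BCAA100, 2 BCAA50 and 2 BCAA200 libraries. BCAA20 was present on the high side and absent from the low side, a difference that did not pass with 6 libraries a side (Fisher's exact test over the 4 diets, two-sided p = 0.6104). Males made up 5 of the 6 Pomc-high and 3 of the 6 Pomc-low libraries by their labels (Fisher's exact test, two-sided p = 0.5455). Each side held 4 libraries of sequencing lane 1 and 2 of lane 2, the lane of all 6 BCAA100 libraries (Fisher's exact test, two-sided p = 1). Tables this small show only large imbalances, and a p that misses the threshold does not show that the make-up was alike.

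Pomc varied widely within each diet, and most on BCAA100, which held both the highest and the lowest library. It was 1.142 to 14.58 FPKM with a median of 5.839 on BCAA20, and 0.502 to 10.01 with a median of 2.66 on BCAA50. On BCAA100 it was 0.408 to 45.1 with a median of 7.236, and on BCAA200 0.640 to 23.12 with a median of 1.892. The 4 ranges overlapped, and so did those of females (0.408 to 14.64 FPKM) and males (0.573 to 45.1 FPKM).

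Some libraries stood apart. Slc17a7, which loads glutamate into synaptic vesicles and is abundant in cortex, was 3.99 FPKM in BCAA100 male replicate 5, the highest Pomc library, and 12.6 in BCAA100 male replicate 6 of the low side, against 105.7 to 234.6 in the other 10 libraries of the sides. BCAA20 male replicate 6 of the high side had Xist at 154.4 FPKM and Ddx3y at 0, which goes against its label. These 3 libraries are the doubted libraries below. The hypothalamic hormone genes Pmch and Hcrt, of the lateral hypothalamus, were at 1.918 and 0 FPKM in BCAA100 male replicate 6 and at 8.806 and 0.257 in BCAA50 female replicate 2. In the other 4 Pomc-low libraries Pmch was 90.6 to 240.1 FPKM. BCAA100 male replicate 6 also had the highest Prkcd (89.2 FPKM), Tcf7l2 (29.4) and Ramp3 (26.5) of the 24 libraries, genes of the thalamus list. On the high side they were at most 5.90, 3.04 and 4.91 FPKM. Lef1 and Synpo2 of that list were highest in BCAA50 female replicate 1. What tissue these libraries held was not tested. The read depth of FPKM values is unknown, and columns summed to between 293850 and 328809 FPKM.

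Arcuate genes were mostly higher where Pomc was high, but Npy was not. Of the 18 arcuate genes, 8 had a mean of at least 1 FPKM over the 24 libraries and were tested on log2(FPKM + 0.5), on which all differences are given here. Of these, 7 were above 0 and 1 below, with a median difference of 1.44 against 0.0554 over all 13805 genes tested. Ghrh and Otp rose (limma, adjusted p under 0.05 over all genes), in a comparison that called 0.377% of all genes higher. Since the sides were set by Pomc, a call states an association with Pomc over these libraries, not an effect of a treatment.

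Ghrh encodes growth hormone-releasing hormone, made by arcuate neurons. It was 8.38 FPKM in BCAA100 male replicate 5, 4.95 in BCAA200 male replicate 4, 4.82 in BCAA20 male replicate 4, 2.47 in BCAA100 female replicate 1, 1.78 in BCAA20 male replicate 6 and 1.72 in BCAA50 male replicate 4. In the Pomc-low libraries it ran from 0.091 to 0.758 FPKM with a median of 0.5535, so the sides did not overlap. The difference was 2.01 (SE 0.339, limma adjusted p = 0.0234). It was 1.90 without the 3 doubted libraries of the sides, where it did not pass (limma adjusted p = 0.0582).

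Otp, a transcription factor of arcuate and paraventricular neuroendocrine neurons, was 3.13 to 8.48 FPKM with a median of 4.74 on the high side and 0.238 to 1.45 with a median of 0.8915 on the low side. The sides did not overlap, and the difference was 2.10 (SE 0.269, limma adjusted p = 0.00493). It passed without the doubted libraries too (1.81, limma adjusted p = 0.0227).

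Cartpt encodes the CART peptide, which Pomc neurons of the mouse also make. It was 93.2 FPKM in BCAA100 male replicate 5, 59.0 in BCAA100 female replicate 1, 50.5 in BCAA200 male replicate 4, 44.7 in BCAA20 male replicate 6, 27.4 in BCAA20 male replicate 4 and 25.0 in BCAA50 male replicate 4. In the Pomc-low libraries it ran from 11.2 to 21.9 FPKM with a median of 17.9. The sides did not overlap, but the difference of 1.42 (SE 0.290) missed the threshold (limma adjusted p = 0.0635). It passed without BCAA50 male replicate 4 (limma adjusted p = 0.0256). Isl1, a transcription factor of arcuate neurons, differed by 1.47 (SE 0.351, limma adjusted p = 0.129).

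Npy was 25.0 to 53.6 FPKM with a median of 36.5 on the high side and 8.04 to 76.9 with a median of 55.2 on the low side. The lowest value of all belonged to BCAA100 male replicate 6, and the other 5 Pomc-low libraries had 51.2 to 76.9 FPKM. The sides overlapped, and the difference was -0.15 (SE 0.452, limma adjusted p = 0.936). Npy is also made by interneurons of cortex and striatum, and the part of those cells in its level here was not tested. Tac2, which encodes neurokinin B, differed by 0.79 (SE 0.439), Npy2r, a receptor for NPY, by 0.90 (SE 0.330) and Prlr, the prolactin receptor, by 1.55 (SE 0.390). None of these 3 passed (limma adjusted p = 0.552, 0.351 and 0.142), and a gene on the same strand overlaps Prlr.

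The other 10 arcuate genes lay below the filter and are given as levels. Agrp, whose product blocks melanocortin receptors, was 0.179 to 0.865 FPKM on the high side and 0.033 to 0.105 on the low side. Kiss1, which encodes kisspeptin, was 0.088 to 3.125 FPKM on the high side and 0 to 0.048 on the low side. Mc3r, a melanocortin receptor, was 0.821 to 2.25 FPKM on the high side and 0.141 to 0.545 on the low side. For these 3 genes every Pomc-high library lay above every Pomc-low library, and so it was for Bsx (0.443 to 1.704 against 0.021 to 0.381 FPKM), Tbx3 (0.729 to 1.354 against 0.311 to 0.479 FPKM) and Esr1 (0.487 to 0.945 against 0.103 to 0.395 FPKM). Nhlh2, Prdm12, Lepr and Ghsr had higher medians on the high side with ranges that overlapped. Of the 13805 tested genes, 1.35% had every Pomc-high library above every Pomc-low library. That share was not computed for genes below the filter. The annotation places 7 other genes over Agrp, of which 2 share its strand, and 3 of the same strand over Kiss1, so their values are uncertain to that extent.

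Pituitary genes overlapped between the sides. Of 15 genes of the anterior and intermediate pituitary, 6 were in the table (Gh, Prl, Lhb, Cga, Lhx3 and Pax7) and Prl alone passed the filter. All of these but Prl had higher medians on the high side. The medians were 0.369 against 0.027 FPKM for Lhb and 0.4225 against 0.0435 for Cga. They were 0.151 against 0.096 FPKM for Lhx3, 0.1745 against 0.033 for Pax7 and 0.166 against 0 for Gh. The annotation places 1 gene of the opposite strand over each of Lhb, Cga, Lhx3 and Prl, as over Prdm12 and Tbx3 of the arcuate list. Their values are uncertain to that extent. Prl, which encodes prolactin, was 13.7 FPKM in BCAA100 female replicate 3, the library with the lowest Pomc, and 8.68 in BCAA20 male replicate 6 of the high side. It was at most 0.203 FPKM in the other 10 libraries of the sides (difference -0.14, SE 0.933, limma adjusted p = 0.978). Gh, the growth hormone gene, was 5.42 FPKM in BCAA200 male replicate 4, 1.69 in BCAA20 male replicate 6, 0.897 in BCAA100 female replicate 3, 0.332 in BCAA50 male replicate 4 and 0.107 in BCAA50 male replicate 5, and it was listed at 0 in the other 7. In BCAA100 male replicate 5, where Pomc was highest, Gh, Prl and Cga were all listed at 0. A listed 0 may be a failed estimate: Junb, an immediate early gene, was listed at 0 in 4 of the 24 libraries and at 7.55 to 29.6 FPKM in the other 20. Whether the zeros of the pituitary genes mean absence cannot be told from these values. The 6 genes together summed to 0.562 to 12.2 FPKM in the Pomc-high and 0.270 to 15.1 FPKM in the Pomc-low libraries, with medians of 1.32 and 0.551. Some pituitary RNA was thus listed on both sides, and its part in Pomc was not tested beyond the values given here.

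Over all 24 libraries, log2 Pomc rose with 17 of the 18 arcuate genes and with none of the 6 pituitary genes (permutation test of Pearson's r on log2(FPKM + 0.5), two-sided, Benjamini-Hochberg adjusted p under 0.05 over the 24 correlations). Above an r of 0.5 lay 11 arcuate and 0 pituitary genes, against 8.76% of all 13805 genes tested. Otp had an r of 0.83 (rho 0.83, permutation p = 1e-05 for both), and 1e-05 is the smallest p that the 100000 resamples can give. Cartpt had an r of 0.83 (rho 0.82, permutation p = 2e-05 for r), Mc3r 0.83 (rho 0.81), Ghrh 0.82 (rho 0.77) and Bsx 0.82 (rho 0.83), the last 3 with a permutation p of 1e-05. Agrp had an r of 0.67 (rho 0.82, permutation p = 0.00016, adjusted p = 0.00048) and Kiss1 0.65 (rho 0.71, permutation p = 0.0005, adjusted p = 0.00133). Tac2, Prlr, Npy2r, Lepr, Esr1 and Prdm12 had an r under 0.5. Tac2 passed by r (permutation test, adjusted p = 0.0482) but not by rho (0.41, permutation test, adjusted p = 0.0683). Npy had an r of -0.13 (rho -0.37, permutation p = 0.562, adjusted p = 0.588).

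Among the pituitary genes, r was 0.37 for Lhb (permutation p = 0.0787, adjusted p = 0.105), 0.31 for Cga, 0.24 for Gh, 0.14 for Lhx3, 0.07 for Pax7 and -0.12 for Prl. Spearman's rho was 0.36 for Lhb, 0.33 for Pax7, 0.18 for Lhx3, 0.09 for Gh, 0.04 for Cga and -0.12 for Prl. No pituitary gene passed by either measure. Without BCAA100 male replicate 5 and BCAA100 female replicate 3, the libraries with the Pomc values farthest from the median, 10 arcuate genes passed, Otp at an r of 0.78 and Cartpt at 0.77, and 1 pituitary gene, Cga (r 0.48, adjusted p = 0.0435). The other 7 arcuate genes lost their call, with an r of 0.32 (Prlr) to 0.46 (Ghsr) over these 22 libraries against 0.43 and 0.54 over 24. Without the 4 libraries with low Slc17a7 or a sex label that goes against Xist and Ddx3y, 12 arcuate genes and no pituitary gene passed over 20 libraries, and the r of Npy was -0.48 (adjusted p = 0.0546). Over these 20 libraries the r of Pax7 was 0.47 (permutation test, adjusted p = 0.059).

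Within lane 1, over 18 libraries, 11 arcuate genes and 3 pituitary genes passed. The r of Mc3r was 0.80, of Otp 0.79, of Ghrh 0.75 and of Cartpt 0.75. The r of Cga was 0.60 (adjusted p = 0.0136), of Pax7 0.59 (adjusted p = 0.0258) and of Gh 0.53 (adjusted p = 0.0285), so within lane 1 some pituitary genes moved with Pomc too. Lane 2 held 6 libraries of a single diet, and r within it was not computed. Whether r differs between the arcuate and the pituitary genes was not tested.

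**Figure D2:**
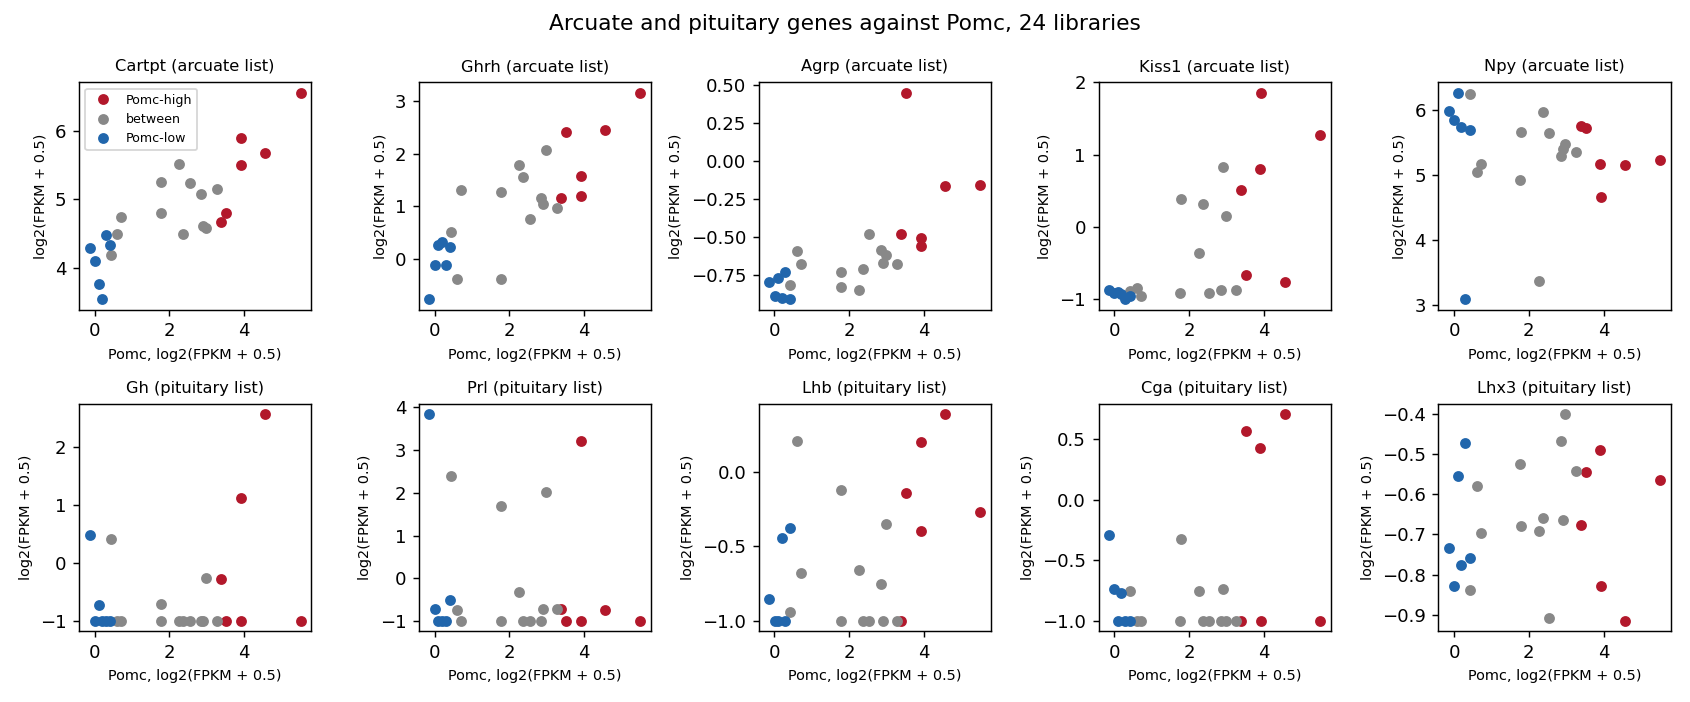
Levels of 5 arcuate genes (top) and 5 pituitary genes (bottom) against Pomc, both as log2(FPKM + 0.5), 1 point a library (red Pomc-high, grey between, blue Pomc-low). Cartpt (r 0.83) and Ghrh (r 0.82) climb with Pomc over all 24 libraries, Npy (r -0.13) does not, and Gh and Cga are listed at 0 FPKM in 16 and 14 libraries, Prl and Lhb in 11 and 9, with high values on either side.

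Across all genes, 52 were higher in the Pomc-high libraries (0.377% of 13805) and 2 were lower (0.0145%), with limma at an adjusted p under 0.05. The called higher genes differed by 0.48 to 4.14, with a median of 1.31. For 51 of the 52, and for both lower genes, the sides did not overlap, against 1.35% of all genes that did not overlap with the high side above and 0.116% with the high side below. Genes called on these same libraries are apt to separate them, so this is no independent result. The counts changed with the libraries and the model. With diet as a covariate 4 genes were higher and 0 lower (limma, 1431 at an unadjusted p under 0.05, against 1499 without it). That fit had 7 residual degrees of freedom against 10, and BCAA20, on the high side alone, adds nothing to its contrast. Whether diet itself lowered the count was not tested. Leaving out a library gave 25 to 92 higher and 0 to 9 lower genes. Without the doubted libraries 35 were higher and 7 lower.

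Oxt led the called genes, with the largest difference. Oxytocin is made by large neurons of the paraventricular and supraoptic nuclei, outside the arcuate nucleus. Oxt was 290.7 FPKM in BCAA100 male replicate 5, 176.7 in BCAA100 female replicate 1, 150.1 in BCAA200 male replicate 4, 110.6 in BCAA20 male replicate 6, 81.5 in BCAA20 male replicate 4 and 71.5 in BCAA50 male replicate 4. In the Pomc-low libraries it was 23.3 in BCAA50 female replicate 2, 18.8 in BCAA100 female replicate 3, 15.2 in BCAA200 female replicate 1, 15.1 in BCAA50 male replicate 5, 1.26 in BCAA200 male replicate 6 and 0.355 in BCAA100 male replicate 6. Every Pomc-high library lay above every Pomc-low library. The difference of 4.14 (SE 0.797) only just passed (limma adjusted p = 0.0492). It kept its sign in 31 of 31 alternatives and its call in 11, and it was 3.29 without the doubted libraries (limma adjusted p = 0.127).

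Irs4, Magel2 and Gabrq were each called in 29 of 31 alternatives, the most among the called genes. Irs4 encodes an insulin receptor substrate found in the hypothalamus. It was 16.3 FPKM in BCAA100 male replicate 5 and 7.41 to 10.96 in the other 5 Pomc-high libraries, against 1.27 to 2.62 on the low side (difference 2.12, SE 0.187, limma adjusted p = 0.000787). Magel2, an imprinted gene of the Prader-Willi region whose loss in mice blunts the response of Pomc neurons to leptin, was 6.22 to 14.1 FPKM against 2.25 to 3.145 (difference 1.62, SE 0.158, limma adjusted p = 0.00111). Gabrq, which encodes the theta subunit of the GABA-A receptor, was 8.66 to 24.05 FPKM against 2.25 to 3.76 (difference 2.22, SE 0.222, limma adjusted p = 0.00111). For all 3 genes the sides did not overlap.

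Other neuropeptide and neuroendocrine genes among the 10 largest differences were Gal and Sytl4. Gal, which encodes galanin, was 10.85 to 41.98 FPKM on the high side and 0.400 to 4.37 on the low side, lowest in BCAA100 male replicate 6 (difference 2.68, SE 0.409, limma adjusted p = 0.0127). Sytl4, whose product granuphilin docks secretory granules, was 3.08 to 11.2 against 0.542 to 1.09 FPKM (difference 2.16, limma adjusted p = 0.00386). Gpr50, an orphan receptor related to the melatonin receptors and found in tanycytes, was 2.25 to 5.56 against 0.137 to 0.716 FPKM (difference 1.89, limma adjusted p = 0.00234). Asb4, an imprinted gene expressed in arcuate neurons, was 3.28 to 10.15 against 0.765 to 1.21 FPKM (difference 1.97, limma adjusted p = 0.00234). Fhad1 was 1.29 to 9.0 against 0.402 to 0.754 FPKM (difference 2.05, limma adjusted p = 0.0195), and 3 annotated genes on the opposite strand overlap it. These 5 genes, with Oxt, Gabrq, Irs4, Otp and Ghrh, are the 10 largest, and in all of them every Pomc-high library lay above every Pomc-low library.

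Calcr, Nkx2-1 and Hdc were singled out from the other called genes after their values were seen. Calcr, the calcitonin receptor gene, differed by 1.84 (limma adjusted p = 0.0118). Nkx2-1, a transcription factor that sets up the ventral hypothalamus, differed by 1.23 (limma adjusted p = 0.0127). Hdc, which makes histamine in the tuberomammillary nucleus, differed by 1.61 (limma adjusted p = 0.0171).

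Both lower genes are known from microglia and other myeloid cells. Alox5ap, which helps 5-lipoxygenase make leukotrienes, was 0.248 to 0.944 FPKM on the high side and 1.15 to 3.49 on the low side (difference -1.48, SE 0.241, limma adjusted p = 0.0194). Trem2, a lipid-sensing receptor of microglia, was 6.82 to 8.33 against 8.996 to 11.4 FPKM (difference -0.43, SE 0.0763, limma adjusted p = 0.0303). Alox5ap kept its call in 17 of 30 alternatives and Trem2 in 16 of 31. In the 12 libraries between the sides neither fell with Pomc. Trem2 was 2.16 to 2.49 FPKM in 3 of those libraries and 6.80 to 10.5 in the other 9, and Alox5ap was under 0.42 FPKM in 4 of them and 1.477 to 3.08 in the other 8. Both genes had levels in 2 separate ranges there, and the cause was not tested. The summed level of 9 other microglia genes was 196.0 to 221.6 FPKM on the high side and 224.6 to 275.9 on the low side. All 9 were below 0 and none passed, the complement gene C1qa at -0.26 (29.0 to 35.9 against 36.9 to 50.5 FPKM, limma adjusted p = 0.287).

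**Figure D3:**
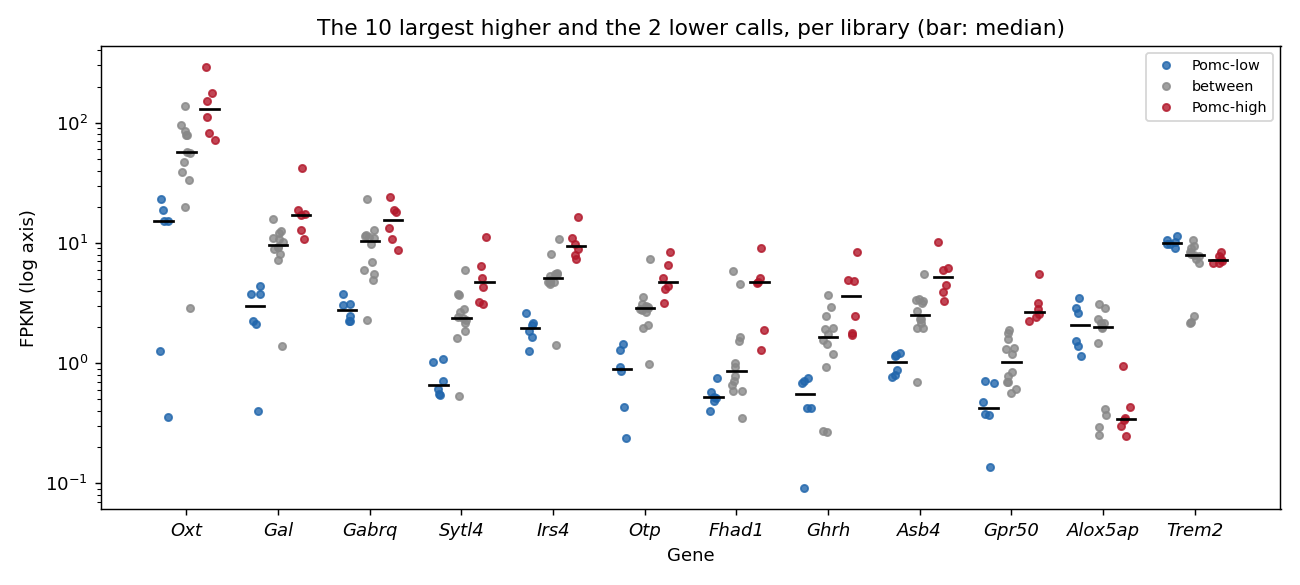
FPKM (log axis) of the 10 called higher genes with the largest differences and of the 2 called lower genes in each library (blue Pomc-low, grey between, red Pomc-high; bars are medians). Every Pomc-high library lies above every Pomc-low library for the 10 higher genes, as with Oxt at 71.5 to 290.7 against 0.355 to 23.3 FPKM, and Alox5ap and Trem2 show the opposite order.

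The libraries rich in Pomc were rich in genes of several hypothalamic nuclei, not of the arcuate nucleus alone, so the sides are named here by Pomc. All 6 tested genes of the paraventricular and supraoptic nuclei were above 0 (median 1.99), and 2 were called, Oxt and Otp, the latter also an arcuate gene. Avp, the vasopressin gene, was 76.4 to 262.2 FPKM against 0.658 to 59.3 (difference 3.37, SE 0.898, limma adjusted p = 0.172), and Trh, which encodes thyrotropin-releasing hormone, was 24.97 to 62.6 against 0.760 to 23.7 (difference 1.88, SE 0.589, limma adjusted p = 0.254). Neither passed, although the sides did not overlap. Crh, at 0.13 (limma adjusted p = 0.899), and Pou3f2, at 0.06, differed least in this list. Of 4 tested ventromedial genes all were above 0 (median 0.886) and the transcription factor Fezf1 rose (1.98 to 4.79 against 0 to 0.699 FPKM, difference 1.86, limma adjusted p = 0.00493). Of 2 tested dorsomedial genes Ppp1r17, which encodes a phosphatase inhibitor, rose (1.68 to 4.53 against 0.337 to 1.07 FPKM, difference 1.54, limma adjusted p = 0.00774). The other, Grp, differed by -0.05 (limma adjusted p = 0.975).

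Below the filter lay 10 genes of the ventromedial, dorsomedial, paraventricular and supraoptic, and suprachiasmatic lists. Their median was higher on the high side for all 10, but the sides overlapped for Sox14, Npvf, Nms, Prok2 and Lhx1 and did not for Nr5a1, Hmx2, Hmx3, Sim1 and Six6. Among the 13805 tested genes, 1.35% did not overlap with the high side above, and the share below the filter was not computed. Lhx1 was 0.209 to 1.56 FPKM on the high side and 0.069 to 3.20 on the low side, and Npvf 0.654 to 2.88 against 0 to 0.676. Nr5a1, the transcription factor that defines the ventromedial nucleus, was 0.324 to 2.498 FPKM on the high side and 0 to 0.058 on the low side, with an r with log2 Pomc of 0.92 over 24 libraries. Hmx3, a dorsomedial transcription factor, was 0.660 to 1.475 against 0 to 0.377 FPKM (r 0.90). Six6, a transcription factor of the suprachiasmatic list, was 0.437 to 1.058 against 0 to 0.057 FPKM (r 0.89). Sim1, which specifies paraventricular neurons, was 0.706 to 1.63 against 0.215 to 0.526 FPKM (r 0.83). These 4 genes were picked after their r was seen, and r is a description over 24 libraries. Hmx2, not among the 4, had an r of 0.84, above that of Sim1. The highest r within the list of 18 arcuate genes was 0.83.

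The list medians of r with log2 Pomc had the same breadth. The median was 0.845 over 5 dorsomedial genes, 0.663 over 6 ventromedial genes, 0.604 over 7 paraventricular and supraoptic genes, 0.598 over 6 ependyma genes and 0.596 over 18 arcuate genes, against 0.115 over all 13805 tested genes, of which 8.76% were above 0.5. It was 0.445 over 10 genes of tanycytes and the median eminence, 0.357 over 6 suprachiasmatic genes, 0.353 over 5 lateral hypothalamic genes, 0.298 over 6 mammillary genes, 0.289 over 6 preoptic and septal genes and 0.192 over 6 pituitary genes. It was -0.273 over 12 cortex and hippocampus genes and -0.39 over 9 microglia genes. The arcuate median thus lay below those of the dorsomedial, ventromedial and paraventricular lists, next to that of the ependyma list, and above those of the pituitary and cortex lists, and these differences were not tested.

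Ependyma and tanycytes line the third ventricle, which the arcuate nucleus borders. All 5 tested ependyma genes were above 0 (median 1.36) and none passed. Dynlrb2, a dynein chain of cilia, was 1.02 to 4.82 against 0.172 to 1.36 FPKM (difference 1.37, limma adjusted p = 0.121), Tmem212 differed by 1.45 (limma adjusted p = 0.276) and Ccdc153 by 1.36 (limma adjusted p = 0.323). Tmem212 averaged 3.645 FPKM on the high side and 0.744 on the low side, with a median of 0.801 between them. It thus passed the filter of 1 FPKM through the high side. Of 8 tested genes of tanycytes and the median eminence, 6 were above 0 (median 0.439), and Gpr50 and Scn7a rose. Scn7a, which encodes a sodium-sensing channel, was 1.43 to 2.56 against 0.676 to 1.06 FPKM (difference 0.92, limma adjusted p = 0.0106). Vim, the vimentin gene, differed by 0.58 (limma adjusted p = 0.142). The genes below 0 were Dio2, at -0.62 (limma adjusted p = 0.413), and Lhx2, at -0.36. Dio2 was 3.29 to 9.83 FPKM on the high side and 4.36 to 12.76 on the low side.

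Genes that process and store the Pomc precursor moved little. Of 11 tested, 8 were above 0 and none passed (median 0.167). Pcsk1, the convertase that makes ACTH, was 11.4 to 17.6 against 7.85 to 12.2 FPKM (difference 0.49, SE 0.117, limma adjusted p = 0.129). Pcsk2, the convertase that goes on to alpha-MSH, was 40.6 to 47.8 against 41.6 to 50.2 FPKM (limma adjusted p = 0.788). Scg2, a granule protein gene, differed by 0.58 (limma adjusted p = 0.236), Pam, which amidates peptides, by 0.38 (limma adjusted p = 0.406), Pcsk1n, an inhibitor of Pcsk1, by 0.26 (limma adjusted p = 0.317), and Cpe, which trims basic residues, by -0.20 (limma adjusted p = 0.434). Scg5, Ctsl, Prcp, Chga and Chgb overlapped between the sides (limma adjusted p from 0.527 to 0.996). These genes serve many peptides in many neurons. Among the receptors, Mrap2, which modulates the melanocortin receptor Mc4r, was 9.31 to 22.3 against 5.42 to 10.95 FPKM (difference 0.87, limma adjusted p = 0.0962), and Mc4r was 0.839 to 1.45 against 0.521 to 1.17 FPKM (limma adjusted p = 0.474).

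**Figure D4:**
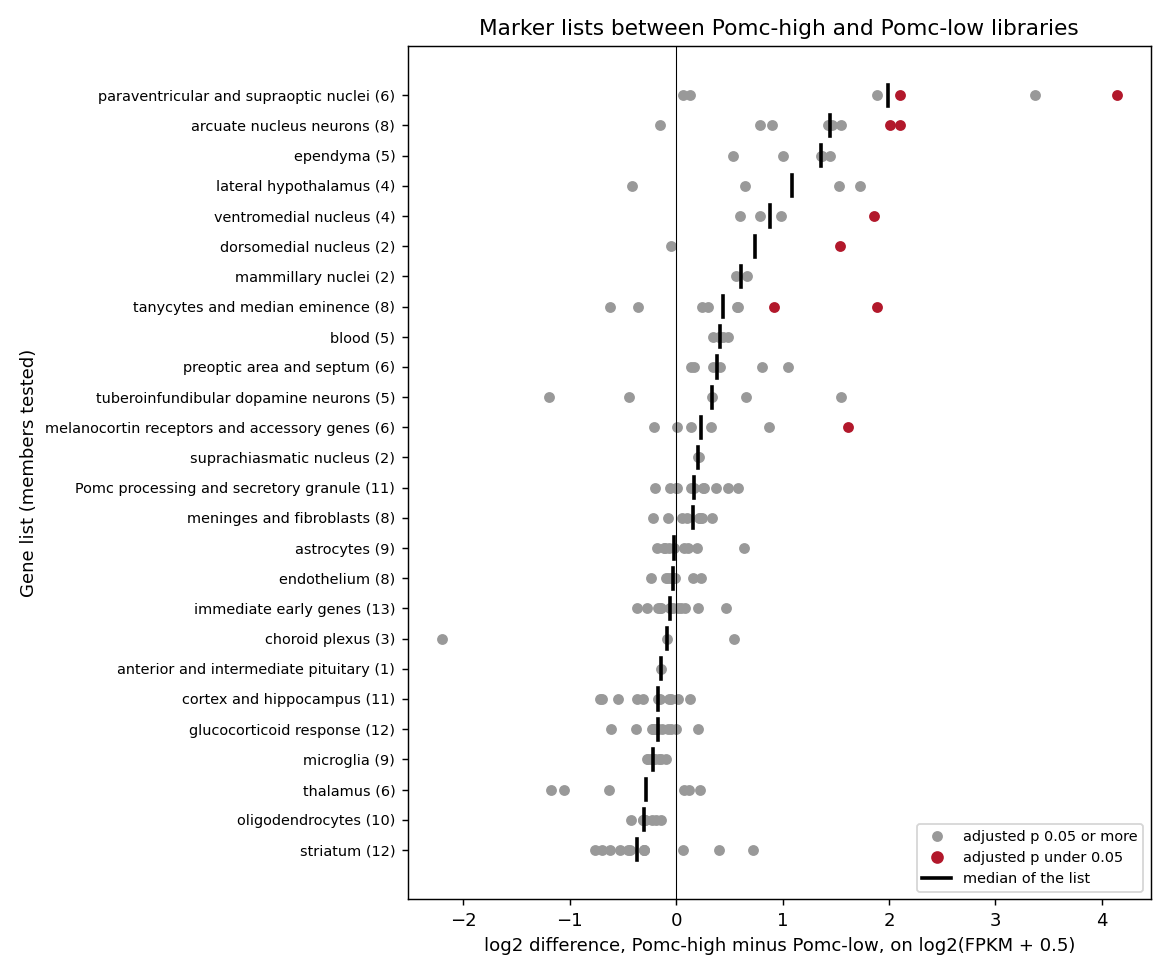
Difference between the Pomc-high and Pomc-low libraries on log2(FPKM + 0.5) for each tested member of 26 gene lists (points; red at a limma adjusted p under 0.05), with the list median as a bar and the number of tested members in parentheses. The medians run from 1.99 (paraventricular and supraoptic nuclei) and 1.44 (arcuate nucleus neurons) to -0.37 (striatum), and the single pituitary gene that was tested lies near 0.

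No gene of the cortex and hippocampus, striatum, choroid plexus and oligodendrocyte lists passed, and most lay below 0. Of 11 tested cortex and hippocampus genes 9 were below 0 (median -0.167), with summed levels of 182.5 to 901.8 FPKM on the high side and 116.4 to 933.6 on the low side. Slc17a7 differed by -0.72 (limma adjusted p = 0.835), a sign that reversed without BCAA100 male replicate 5. All 10 oligodendrocyte genes were below 0 (median -0.30), Mog, a myelin gene, at 14.3 to 25.8 against 18.0 to 60.1 FPKM (limma adjusted p = 0.574), the highest in BCAA100 male replicate 6. Of 12 striatum genes 9 were below 0 (median -0.369), with summed levels of 140.0 to 607.6 against 103.5 to 669.9 FPKM. Ttr, abundant in choroid plexus, was 1.18 to 4.30 FPKM on the high side and 1.26 to 369.4 on the low side (difference -2.21, SE 1.102, limma adjusted p = 0.497). Over all tested genes 64.1% were above 0. The part of the shares of other tissue in the higher genes was not tested.

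The remaining lists held no called gene. All 5 tested blood genes were above 0, all 6 of the preoptic area and septum, both suprachiasmatic and both mammillary genes, 3 of 4 lateral hypothalamic, 6 of 8 meninges and fibroblast and 3 of 5 tuberoinfundibular dopamine genes. Above 0 were also 4 of 9 astrocyte, 2 of 8 endothelium, 3 of 6 thalamus, 1 of 3 choroid plexus, 5 of 13 immediate early and 1 of 12 glucocorticoid response genes. Thalamus genes summed to 13.9 to 27.3 FPKM on the high side and 15.7 to 208.5 on the low side. Blood genes summed to 3775 FPKM in 1 Pomc-high library, BCAA20 male replicate 4 by its Hbb-bt of 608.5 FPKM, and to at most 596.8 on the low side.

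The 12 libraries between the sides were not used to choose the called genes and give a second look at the same measure. Of the 52 higher genes, 49 had a slope above 0 on log2 Pomc there, against 55.6% of all genes. An unadjusted p under 0.05 with a slope above 0 was reached by 12 of the 52, against 3.33% of all genes. An unadjusted p under 0.05 with a slope below 0 was reached by 2.48% of all genes and by neither lower gene. No gene passed after adjustment over these 12 libraries (limma, 803 at an unadjusted p under 0.05). The exceptions below 0 included Fhad1, with a slope of -0.08. Pomc spans a narrower range there, 0.846 to 9.15 FPKM, and 1 of the 12, BCAA50 female replicate 1, had 138.8 FPKM of Oxt and 22.99 of Gabrq at 4.30 of Pomc. BCAA200 female replicate 2, with the lowest Pomc of the 12, was also lowest for Irs4 (1.42 FPKM), Asb4 (0.695), Gal (1.375), Gabrq (2.27) and Otp (0.99). It was not lowest for Oxt, Ghrh and Gpr50. Slopes without this library were not computed. The 52 genes share these 12 libraries, so their slopes are not separate results.

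**Figure D5:**
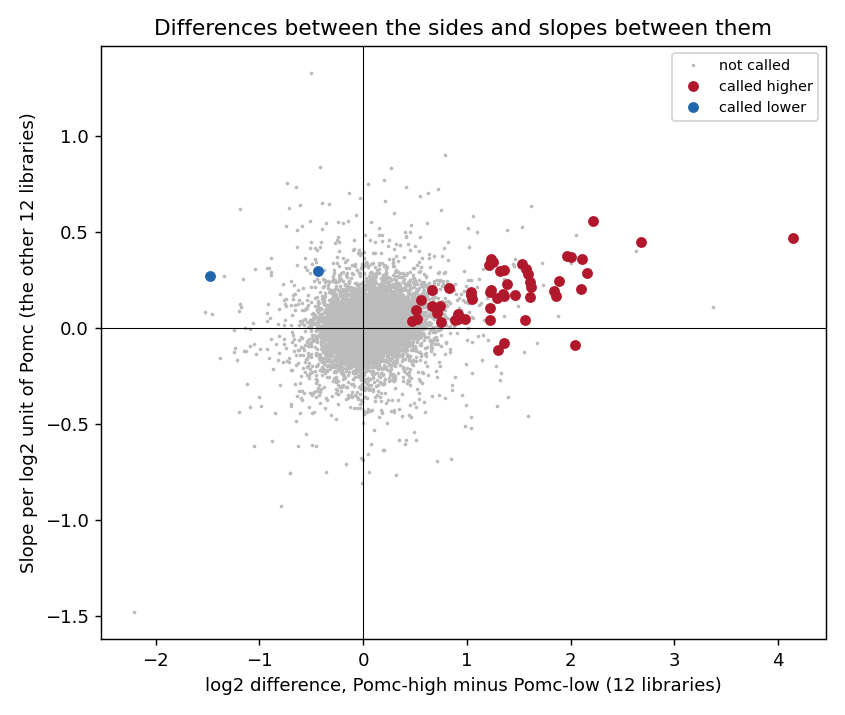
For each tested gene, the slope on log2 Pomc over the 12 libraries between the sides (vertical axis, log2 units per log2 unit of Pomc) against the difference between the sides (horizontal axis, log2 units). Of the 52 called higher genes (red) 49 lie above 0 on the vertical axis, and both called lower genes (blue) lie above 0 as well.

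As a slope over all 24 libraries, 433 genes rose with Pomc (3.14%) and 39 fell (0.283%). With the 8 means of diet and sex as covariates, 178 genes rose (1.29%) and 8 fell (0.058%). Of the 52 higher genes 48 were among the 178, and neither lower gene was among the 8. Of the 8 tested arcuate genes, 5 passed in that fit: Otp (slope 0.52, limma adjusted p = 0.000994), Cartpt (0.36, limma adjusted p = 0.00179), Ghrh (0.48, limma adjusted p = 0.00351), Isl1 (0.39, limma adjusted p = 0.0459) and Npy2r (0.25, limma adjusted p = 0.0496). Pcsk1 passed there too (0.13, limma adjusted p = 0.00182), 1 of 2 genes of the processing list that did. Npy (-0.02, limma adjusted p = 0.946) and Prl (-0.12, limma adjusted p = 0.857) did not. This fit shares its libraries with the comparison of the sides and is no independent test.

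Within lane 1, with 4 libraries a side, 21 genes were higher (0.152%) and 4 lower (0.029%), and 17 of the 52 were among the 21. All 52 lay above 0 and both lower genes below 0 in lane 1 and, with 2 libraries a side and no test, in lane 2. Oxt differed by 3.31 in lane 1 (limma adjusted p = 0.259) and Otp by 1.76 (limma adjusted p = 0.0707).

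Among the genes whose levels were most like Pomc over the 24 libraries, by Pearson's r on log2(FPKM + 0.5), were Asb4 (0.92), Ppp1r17 (0.91), Irs4 (0.905), Gpr50 (0.895), Gabrq (0.88), Fndc9 (0.88), Magel2 (0.88), Sytl4 (0.87) and Gabre (0.86). These 9 genes were also called between the sides, which share 12 of these 24 libraries. Gabre, which encodes the epsilon subunit of the GABA-A receptor, was 1.69 to 3.63 FPKM on the high side and 0.186 to 0.695 on the low side. The lowest r were those of Tmem151a (-0.74), Slc9a3r1 (-0.72), Cdk16 (-0.705), Kif5a (-0.70) and Dagla (-0.70). None of these 5 passed between the sides (limma adjusted p from 0.0904 to 0.252), and Kif5a, a neuronal kinesin gene, was 257.3 to 372.6 FPKM on the high side and 320.6 to 427.0 on the low side.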

How the data were processed

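The authors deposited FPKM values per gene symbol for 24 libraries. A Pearson correlation score with BCAA intake and its p-value, also deposited by the authors, were not used. Per the submitters' processing notes, the build named is GRCm38 and the tools named include StringTie 1.2.4 and TopHat2 2.0.14. The annotation and the handling of overlapping genes are not given in the sources used here, which leaves the values of overlapping genes uncertain. FPKM gives no depth, so no counting interval could be given.

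The tests used log2(FPKM + 0.5) of 13805 genes, those averaging 1 FPKM or more over the 24 libraries, Pomc left out. This scale understates differences of low genes. The sides were compared with limma 3.58.1 in R 4.3.3 (mean-variance trend, robust moderation, two-sided, Benjamini-Hochberg adjusted p under 0.05 over all genes). Make-up was compared with Fisher's exact test, and 24 correlations with 100000 permutations, for genes averaging 0.1 FPKM or more. The fit was checked on simulated data. Each library is a separate animal, per the series' design text. Libraries were doubted where Slc17a7 was under 20 FPKM or the sex label differed from Xist and Ddx3y. Of 4 such libraries 3 lie on the sides.

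The sides, gene lists and tests were chosen with earlier results of these data known. Named genes are the arcuate, processing and pituitary lists, up to 10 called genes per direction, the 10 highest and 5 lowest correlations, and up to 4 members of any other list, of which not all are printed. A gene named by this rule is left out here. Genes named beyond the rule are the low members of the hypothalamic lists, 3 called genes and imprinted genes. Alternatives were other pseudocounts, filters, scalings, weights, covariates, side sizes, slopes on Pomc and leaving out libraries.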

Additional observations from a re-analysis of the deposited data

Results flagged for a closer look

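Of 100 groups of 6 libraries tested with Dixon's criterion, 17 held a library far from the other 5, where chance alone gives about 1 in 20. Of these, 6 belong to BCAA100 male replicate 6 of the low side. It was low for Gal (0.400 FPKM, others 2.13 to 4.37), Npy (8.04, others 51.2 to 76.9) and Tac2 (2.27, others 10.6 to 19.7). It was high for Nhlh2 (1.644 FPKM, others at most 0.628), Pax7 (2.02, others at most 0.130) and Chga (63.8, others at most 44.2).

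BCAA100 male replicate 5, with the highest Pomc, was above the other Pomc-high libraries for Gpr50 (5.56 FPKM, others at most 3.15), Alox5ap (0.944, others at most 0.428), Scg5 (179.2, others at most 130.4) and Nkx2-1 (5.54, others at most 2.835). BCAA100 female replicate 3, with the lowest Pomc, was above the other Pomc-low libraries for the pituitary genes Prl (13.7 FPKM, others at most 0.203), Gh (0.897, others at most 0.107) and Cga (0.317, others at most 0.1). Prl was also high in BCAA20 male replicate 6 among the Pomc-high libraries (8.68 FPKM, others at most 0.104).

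Prlr was 1.092 FPKM in BCAA200 female replicate 1, above the other Pomc-low libraries (at most 0.221). Nkx2-1 was 0.686 FPKM in BCAA50 male replicate 5, below the other Pomc-low libraries (at least 0.904). Zim1, an imprinted gene, was 2.84 FPKM in BCAA50 male replicate 4, below the other Pomc-high libraries (at least 6.35).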

How the results depend on the processing

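The count of 52 higher and 2 lower genes was within 1.5 times with pseudocounts of 0.1 and 1, median centring, quantile normalization, limma without trend and robust moderation, and lane as a covariate. It was 15 and 1 with a filter of 5 FPKM and 87 and 2 with no filter. It was 172 and 22 with array weights, 32 and 1 with sex as a covariate, and 4 and 0 with diet as a covariate. It was 251 and 106 with 4 libraries a side, 101 and 4 with 8, 21 and 4 in lane 1, and 35 and 7 without the doubted libraries. As a slope on log2 Pomc it was 433 and 39 over 24 libraries, 178 and 8 with 8 group means, and 0 and 0 over the 12 libraries between. Leaving out each library in turn gave 25 (without BCAA100 female replicate 1) to 92 higher genes (without BCAA50 male replicate 4) and 0 (without BCAA100 female replicate 1 or BCAA200 male replicate 4) to 9 lower genes (without BCAA100 male replicate 6). With the replicate number as a block, 0 genes were higher and 0 lower (1162 at an unadjusted p under 0.05, 5 residual degrees of freedom). The numbers do not pair the sides, since labels give 1 to 3 to females and 4 to 6 to males.

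Of the values of single genes under alternatives, 1480 kept direction and side of the threshold, 159 lost the call, 58 gained it and 19 reversed. In the 12 libraries between, slopes reversed for Fhad1 (-0.084), Alox5ap (0.27), Trem2 (0.30), Npy2r (-0.026), Prlr (-0.13), Vim (-0.062), Dynlrb2 (-0.068) and Mog (0.097). Leaving out each library in turn gave -0.62 to 0.013 for Npy, -1.38 to 0.12 for Slc17a7 and -0.83 to 0.64 for Prl. Prl also reversed with sex as a covariate (0.14), with the replicate block (1.53) and in lane 1 (0.99). The r of Prl with Pomc was 0.17 in lane 1 and 0.12 without the 2 farthest libraries. Of arcuate genes, 11 passed in lane 1 and 10 without those 2, and of pituitary genes 3 and 1. The cause of these changes was not tested. Diet make-up did not pass with 4 or 8 libraries a side (Fisher's exact p = 0.6571 and 0.596).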

Other observations

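Several called genes are imprinted, and a list of 46 imprinted genes was drawn up after that was seen, so it is described and not tested. In all 42 were listed, 40 passed the filter, 36 were above 0 and 4 below, with a median difference of 0.28 against 0.0554 over all genes. Of these, 6 were called higher (Magel2, Asb4, Peg10, Calcr, Zim1 and Zdbf2), against 0.377% of all genes. Peg10, a gene of retrotransposon origin, differed by 1.32 (limma adjusted p = 0.0101) and Zim1, a zinc finger gene, by 1.59 (limma adjusted p = 0.0135). The summed level of the 42 genes was 2554 to 3502 FPKM on the high side and 2293 to 2972 on the low side.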
